A study of Mus musculus with 2 samples.

Results

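Transcript models with a splice site that the annotation does not hold were read in both of 2 long-read RNA libraries of mouse adrenal gland, and 2051 of them had the same introns in each. They were chosen by their class and structure: models of annotated genes, of more than 1 exon, placed in each library in the class NNC, which holds at least 1 splice site absent from the catalogue of sites, with every intron starting and ending at the same base. The series lists 180557 models when each library's models are counted separately, of which 19954 in replicate 1 and 8094 in replicate 2 are spliced NNC models. The chosen models are thus 10.3% of the spliced NNC models of replicate 1 and 25.3% of those of replicate 2. They belong to 1572 genes, of which 1503 are protein-coding, 23 lincRNA and 19 antisense, and no intron chain among them is annotated. In 7 members the 2 libraries name different genes, and the gene given is that of replicate 1. Because presence in both libraries chose them, their recurrence is described and not tested.

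Both libraries come from adrenal gland of female B6CASTF1/J mice, 36 days old, the first-generation cross of the strains C57BL/6J and CAST/EiJ, with no treatment named in the labels. The 2 libraries form a single group and carry the labels' numbers 1 and 2 as biological replicates. One label field gives both libraries the same animal number and another gives different numbers, so every spread and p-value below describes these 2 libraries. Each library was sequenced by long-read RNA-seq, and the values are counts of reads per model.

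In pre-mRNA splicing an intron is cut at a donor site at its 5′ end, which nearly always begins with GT, and at an acceptor site at its 3′ end, which nearly always ends in AG. A gene can use alternative donors or acceptors a few bases apart, extra exons, other first or last exons, or introns cut out of an exon, and each choice gives a different mRNA. Within a coding exon a shift by a multiple of the codon length keeps the reading frame, and other shifts change it. The adrenal cortex makes steroid hormones with a small set of very abundant enzymes, and the medulla makes catecholamines and secretes granule proteins such as chromogranins.

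The splice sites of 10 members are shown first, because they are among the most read examples of the main kinds of change. The letters are those of the C57BL/6J reference (mm10), taken from the GENCODE M21 transcripts and RefSeq promoters, 5′ to 3′ on the strand of the gene. Capitals mark the first 2 bases of the model's intron at a donor and its last 2 bases at an acceptor, so the exon ends just before the capitals of a donor and begins just after those of an acceptor.
Mrpl33 donor, chr5:31614016-31614045, plus strand: gtctcttgtaagtcgGTctgaggcggcggc
Chmp1a donor, chr8:123212626-123212655, minus strand: gtcatccacttcgggGTcggagcgggagtc
Dctn2 donor, chr10:127267478-127267507, plus strand: atgcggtaagactgtGTgctacctcaggat
Capn2 donor, chr1:182484171-182484200, minus strand: accggcagaggatggGTggggctccgcctt
Rps24 donor, chr14:24494073-24494102, plus strand: ctgccattgggcacgGTgtggggtgtgcca
Mknk2 donor, chr10:80676108-80676137, minus strand: tccgggctgtgctagGTgaggtgacggcgc
Cdkn1c acceptor, chr7:143460661-143460690, minus strand: gtacctccgcagcAGaacagcgatggaacg
Ewsr1 acceptor, chr11:5079508-5079537, minus strand: cgtttatccccccAGcagcgctggagagcg
Hsd3b1 acceptor, chr3:98857981-98858010, minus strand: cctatatcataccAGctcccactgtcatct
Cyp21a1 acceptor, chr17:34804094-34804123, minus strand: gctaaattctaacAGaaccattgaggaggc

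The libraries held 1223776 reads in replicate 1 and 453761 in replicate 2, of which 1144572 and 414588 fell in annotated genes. Levels are given as reads per 1000000 reads of annotated genes (CPM), so a single model needs 3 reads, or 2.62 CPM in replicate 1 and 7.24 CPM in replicate 2, to exceed what a count of 0 allows. Full-length reads are those of models in the classes Known, NIC (a new combination of catalogued sites) and NNC, and they numbered 937121 and 313831. Adrenal cortex markers summed to 54340 and 71555 CPM and medulla markers to 9944 and 6739 CPM, and all 5 genes of each list were read in both libraries. Adipocyte markers stood at 3176 and 5495 CPM and skeletal muscle markers at 822 and 4.82 CPM, with 2 of 4 muscle genes read in both, and none of 3 kidney markers was read. The part of these other cells in the results below was not tested.

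The members held 10662 reads in replicate 1 and 4612 in replicate 2, with a median of 2 reads and of 1 read. Of the 2051, 767 had a single read in each library, 552 had at least 2 reads in each and 128 at least 5 in each. Their summed level was 9315 CPM and 11124 CPM, a mean of 10219.8 ± 1279 (SD, n = 2). They took 31.8% of the reads of spliced NNC models in replicate 1 and 40.8% in replicate 2, with Wilson 95% intervals of 31.3 to 32.3% and 39.9 to 41.7%. Intervals and floors here cover counting error only, since reads need not be separate molecules. Of all full-length reads the members took 1.14% and 1.47%.

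How often an NNC model recurred went with its read number, as the rule itself would have it. In replicate 2, 19.4% of the models with 1 read were found as NNC in replicate 1, against 61.4% of those with 2 to 4 reads, 76.7% with 5 to 9 and 91.7% (55 of 60) with 10 or more. The 60 models with 10 or more reads in replicate 2 all had their introns in replicate 1 when models of any class were counted. In replicate 1, the deeper library, the same 4 shares were 5.39%, 27.1%, 61.1% and 80.1%. Among NNC models read in 1 library only, 87.9% in replicate 1 and 93.8% in replicate 2 had a single read, against 43.7% and 66.7% of the members.

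The class NNC was not a property of a splice site alone in these files. A further 304 chains were NIC in replicate 1 and NNC in replicate 2, 147 were NNC in replicate 1 and NIC in replicate 2, and in all 2574 chains were read in both libraries and NNC in at least 1. Of the spliced NIC models, 16.7% in replicate 1 and 9.74% in replicate 2 held a site absent from the annotation, and of those sites 97.2% and 95.2% also stood in an NNC model of the same library. In turn 94.4% and 95.9% of the new sites of NNC models stood in a single NNC model of their library. Among the members, 2411 of 2457 new sites stood in 1 member only, and 3 was the most members that shared one. A new site read in several combinations of exons is therefore counted mostly once here, and its full use is given below over all models.

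**Figure D1:**
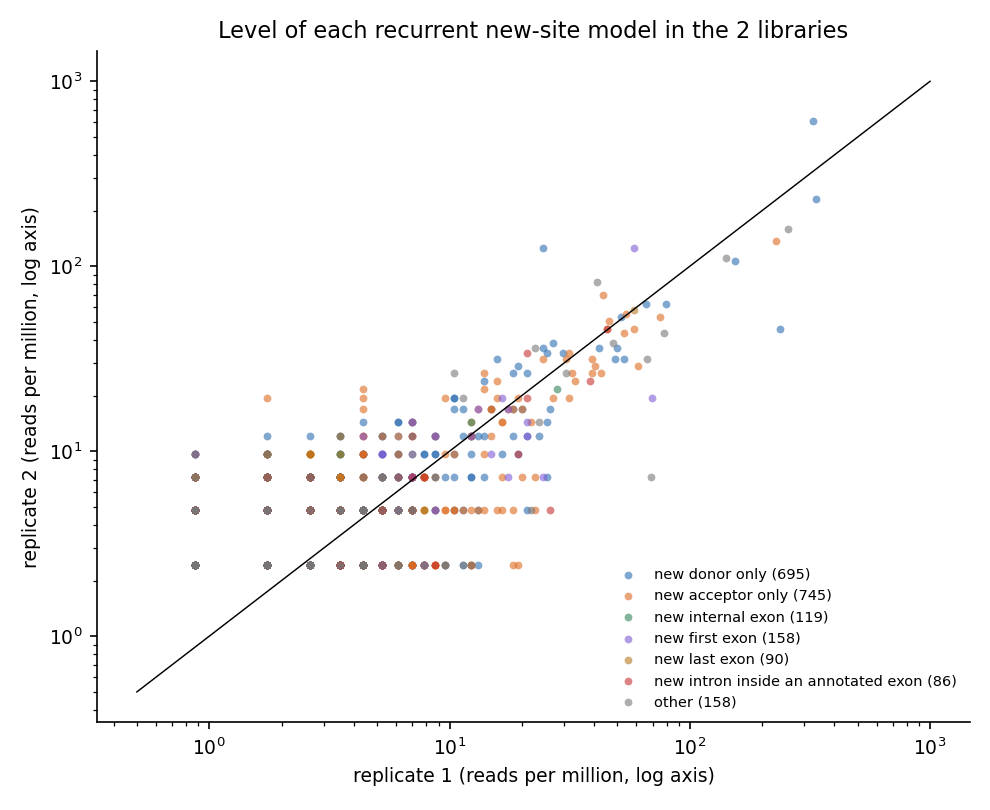
Each point is one of the 2051 recurrent models, placed by its CPM in replicate 1 (horizontal, log axis) and replicate 2 (vertical, log axis), coloured by kind of new structure, with the number of models in brackets and a line at equal levels. The rows and columns of points at the lower left are models of 1 or a few reads, and Mrpl33, at 327 and 608, is the highest.

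By structure, most members changed one end of one annotated exon. Of the 2051 members 1686 (82.2%) had 1 new site, 312 had 2 and 53 had 3 or more. Members with new donors of annotated exons only numbered 695 (33.9%, 3986 ± 564 CPM in sum), and those with new acceptors only 745 (36.3%, 3357 ± 331 CPM). A new first exon was the only change in 158 members (738 ± 154 CPM), a new internal exon in 119 (313 ± 127 CPM) and a new last exon in 90 (320 ± 127 CPM). A new intron inside an annotated exon was the only change in 86 (380 ± 36.3 CPM), and the remaining 158 combined kinds (1126 ± 60.2 CPM), with the SD in each case over 2 libraries. Combined kinds made up 7.70% of the members, against 17.7% and 16.7% of the NNC models read in replicate 1 only and in replicate 2 only. These side-by-side shares carry no test, since the members have more reads per model than the rest.

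Measured from the nearest annotated site of the same kind in the gene, 782 of the 2457 new sites (31.8%) lay within 10 bases, with a Wilson interval whose upper bound was 33.7%. The 800 new donors of annotated exons had a median distance of 24 bases (quartiles 4 and 147), and 38.6% lay within 10 bases. The 846 new acceptors of annotated exons lay nearer, at a median of 7 bases (quartiles 3 and 45.8), with 53.7% within 10 bases. Of these acceptors 72.7% lay downstream of the annotated one, which shortens the exon, and of the donors 59.1% lay downstream, which lengthens it.

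The distances were concentrated at a few values. A donor 4 bases downstream of the annotated donor accounted for 126 of 800 (15.8%), followed by 3 bases upstream with 38 and 4 bases upstream with 25. An acceptor 3 bases downstream accounted for 159 of 846 (18.8%), followed by 2 bases with 76, 4 bases with 66, 5 bases with 44 and 6 bases with 33, while 3 bases upstream held 25. In NNC models of replicate 1 only and replicate 2 only, the share at 3 bases downstream was 9.13% and 8.94% for acceptors, and the share at 4 bases downstream was 18.8% and 20.3% for donors. The share of acceptors at 3 bases was thus higher in the recurrent models and the share of donors at 4 bases lower, with no test of either difference.

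**Figure D2:**
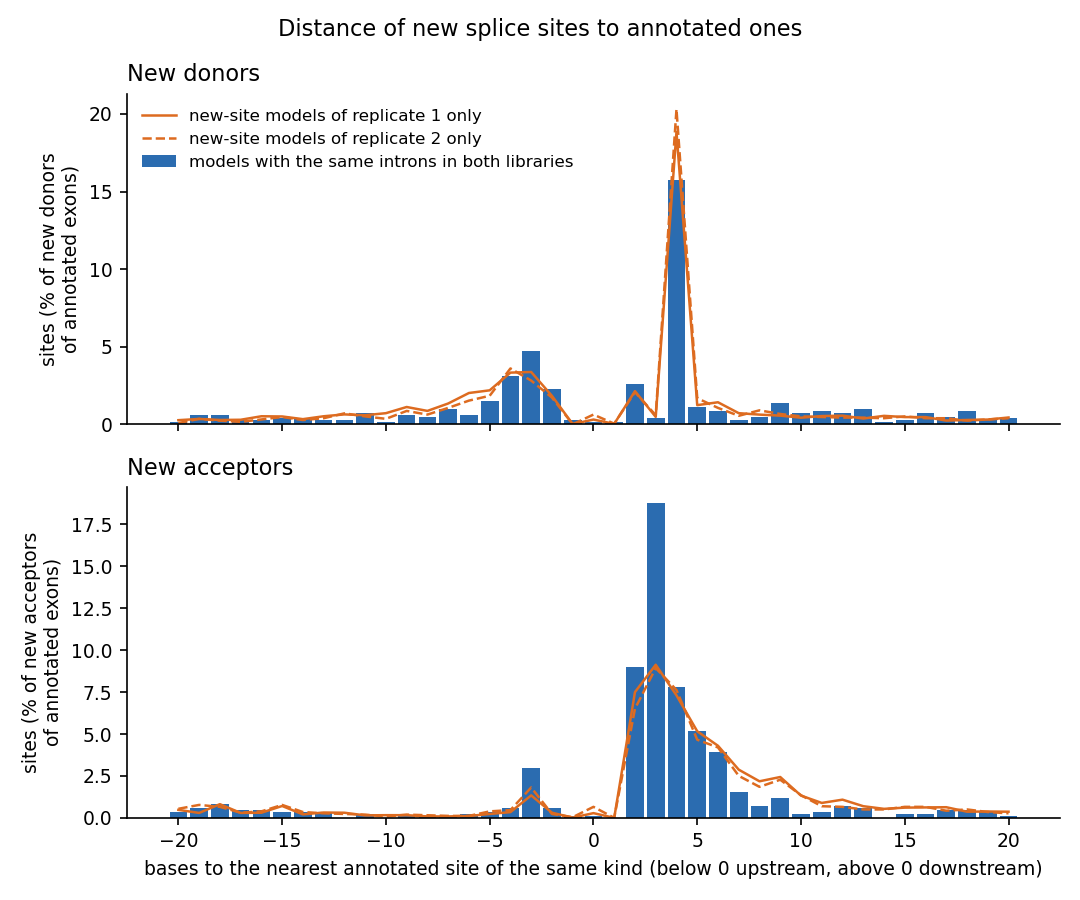
Share of new donors (top) and new acceptors (bottom) of annotated exons at each distance from the nearest annotated site of the same kind, in bases, for recurrent models (bars, 800 donors and 846 acceptors) and for new-site models of 1 library only (lines). The bars peak at 4 bases downstream for donors (15.8%) and 3 bases downstream for acceptors (18.8%).

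The letters at these short shifts could be read in part. All 159 acceptors moved 3 bases downstream were readable, and the 3 bases between the annotated and the new cut were GAG in 62, CAG in 49, AAG in 39 and TAG in 9, so that an NAG directly follows the annotated intron. Such pairs are known as tandem acceptors. All 38 donors moved 3 bases upstream had GTG as the 3 bases before the annotated cut. At the 126 donors moved 4 bases downstream only 35 could be read, and the 4 bases in between began with GT in 33, most often GTAA (8) and GTGA (7). Those letters are the start of the annotated intron itself, and the model's intron begins after them.

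Over all new sites whose letters could be read, 563 of 611 donors (92.1%) began with GT and 47 (7.69%) with GC, and 809 of 821 acceptors (98.5%) ended in AG and 10 in AT. Annotated sites of the same annotation began with GT in 95.7% and GC in 2.64%, and ended in AG in 98.1%, with 17.8% of donors and 16.8% of acceptors readable. New sites of NNC models of replicate 1 only and replicate 2 only stood near the members. Their donors began with GT in 89.7% and 90.9%, and their acceptors ended in AG in 97.0% and 97.2%. In the leading coding transcripts of the member genes, read on the transcript strand, GT made up 5.34%, GC 6.51% and AG 7.73% of all pairs of neighbouring bases. Where both ends of a new junction were readable, 554 of 589 were GT-AG, 27 GC-AG, 6 GT-AT and 1 AT-AC. Only 589 of 2244 junctions were readable at both ends, because introns that no transcript retains are not used here.

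Most new sites lay in the coding span of the gene, which includes introns. Placed on the annotated coding transcript with most reads, 1484 (60.4%) fell in the coding span, 371 (15.1%) in the 5′ UTR span, 148 (6.02%) in the 3′ UTR span, 133 upstream and 65 downstream of that transcript. The remaining 256 belonged to genes where no spliced coding transcript of the annotation was read. In the coding span, 296 of 633 moved acceptors (46.8%) were shifted by a multiple of 3 bases, and 151 of 504 moved donors were. The 5′ UTR span had near shares, with 50 of 110 acceptors (45.5%) and 52 of 176 donors (29.5%). In the 3′ UTR span 14 of 31 acceptors (45.2%) were so shifted. In genes where no spliced coding transcript was read, 18 of 56 acceptors (32.1%) were. The shift alone does not give the frame of the model, since some junctions also pass over an annotated exon, as described below. In the coding span of NNC models of replicate 1 only and replicate 2 only, the acceptor share was 39.0% and 38.0% and the donor share 28.3% and 26.6%. The size of the shift was not used to choose the members, but these are descriptive shares.

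The moved sites were usually a small part of what their exon used. Over all reads of both sites, counted in models of any class, the median use of a new donor within 10 bases was 0.709% in replicate 1 and 1.15% in replicate 2 (225 sites with 20 or more reads in each library). New acceptors within 10 bases stood at 0.851% and 1.59% (331 sites), donors farther away at 1.32% and 2.31% (277 sites), and acceptors farther away at 1.02% and 2.13% (239 sites). A single read is a larger share in the shallower library, so the higher medians of replicate 2 cannot be told apart from its depth. New sites used in 50% or more of the reads on average were 6 near donors, 8 far donors, 4 near acceptors and 5 far acceptors.

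At the level of whole models, 1361 members belonged to genes that reached 20 full-length reads in both libraries. Their median share of the gene's full-length reads was 0.840% and 1.72%, and 836 held under 2% on average. Members were found in 939 of the 3015 genes read that deeply (31.1%). On average over the libraries 60 members held 10% or more of their gene's reads, 32 held 20% or more, and 13 held 50% or more.

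The member with the highest level was a model of Mrpl33, a protein of the large subunit of the mitochondrial ribosome. It had 374 reads in replicate 1 and 252 in replicate 2, or 327 and 608 CPM, and held 83.7% and 89.7% of the full-length reads of its gene. Its new donor, 8 bases past the annotated one in the first exon, took 97.9% and 98.4% of the reads at the pair. In both libraries most full-length reads of this gene thus stand in a model whose donor the annotation lacks. Its junction also passes over a short annotated exon, described below, and how those reads were aligned was not tested.

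Idh3g, the gamma subunit of the NAD-dependent isocitrate dehydrogenase of the citric acid cycle, followed with 382 and 96 reads, 79.9% and 73.3% of its gene. Its donor lay 4 bases past the annotated donor of the second exon of the model and took 89.1% and 85.3% of the reads at the pair. Chmp1a, an ESCRT-III protein of membrane scission, had 272 and 19 reads (91.0% and 90.5%) with a donor 25 bases past the annotated one. Its level was 238 CPM in replicate 1 and 45.8 in replicate 2, a wide gap, while its share of the gene was nearly the same.

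Capn2, the large subunit of m-calpain, had 75 and 26 reads, and these were 97.4% and 96.3% of its full-length reads, with a donor 17 bases past the annotated one. Suds3, a part of the Sin3 deacetylase complex, had 162 and 46 reads (63.3% and 70.8%) and 2 new sites on one intron, a donor 4 bases downstream and an acceptor 16 bases upstream. Col6a1, a collagen VI chain, had 89 and 18 reads (85.6% and 78.3%), with an acceptor 37 bases upstream and, at another intron, a donor 4 bases downstream. In these 3 genes the new sites took over 97% of the reads at each pair in both libraries.

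Cct6a, a subunit of the cytosolic chaperonin, had 293 and 66 reads (91.6% and 90.4% of its full-length reads) and an intron of 50376 bp with a donor 61 bases past and an acceptor 33 bases before the annotated ones. That intron passes over 2 annotated exons, 137 bp in sum and listed at 0 reads in both libraries, while 94 bases are added at its ends. Mknk2, a kinase that phosphorylates a translation initiation factor, had 28 and 52 reads (75.7% and 63.4%) with a donor 42 bases upstream in the 5′ UTR span. 4930447A16Rik had 47 and 34 reads (81.0% and 87.2%) with a new donor and a new last exon. The new donor of 4930447A16Rik was the only one read there, with 58 and 39 reads and none at the annotated donor.

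Among the other highly read members, Dctn2, a dynactin subunit, had 176 and 44 reads, and its donor 10 bases downstream took 51.9% and 52.7% of the reads at the pair. Cdkn1c, the imprinted cyclin-dependent kinase inhibitor p57, had 262 and 57 reads, 13.7% and 13.1% of its gene. Its acceptor 3 bases downstream, in the 5′ UTR span, took 29.3% and 30.3% over all models, 495 and 113 reads against 1197 and 260 at the annotated acceptor. The printed Cdkn1c letters hold CAG directly before the new cut, after the annotated one.

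Ewsr1, an RNA-binding protein, had 62 and 23 reads and an acceptor 3 bases upstream that took 32.2% and 33.8% of the reads at the pair. Rps24, a protein of the small ribosomal subunit, had 59 and 22 reads (38.3% and 39.3%) with a donor 18 bases downstream. Over all models that Rps24 donor took 96.1% and 93.9% of the reads at the pair, 74 and 31 reads against 3 and 2 at the annotated donor. Atp6v0e, a proton pump subunit, had 91 and 26 reads (25.3% and 18.4%) with a donor 16 bases upstream. Sdhb, the iron-sulfur subunit of succinate dehydrogenase, had 67 and 19 reads (7.48% and 5.56%) with an acceptor 6 bases downstream. Gm21887, a gene model on the X chromosome, had 76 and 13 reads (59.4% and 68.4%) with 3 new sites, among them a first exon of 319 bp.

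**Figure D3:**
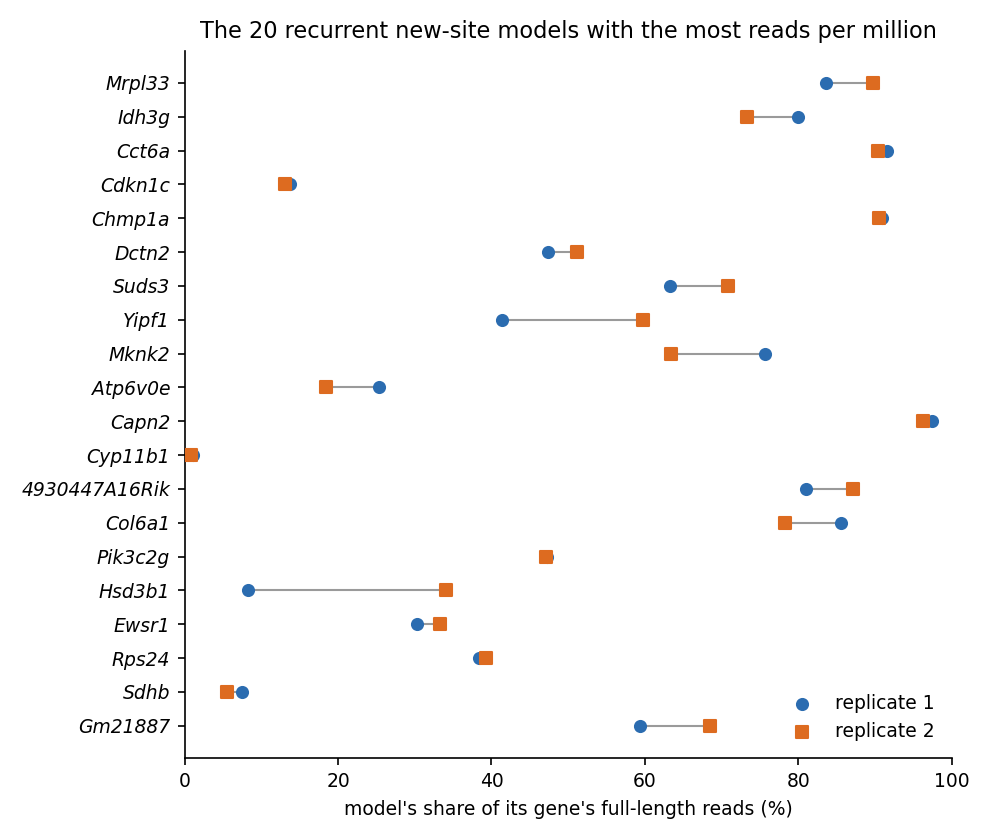
Share of the gene's full-length reads, in percent, held by each of the 20 recurrent models with the highest mean CPM, in replicate 1 (circles) and replicate 2 (squares), in order of level. Capn2 and Cct6a lie above 90% in both libraries, Cyp11b1 lies near 1%, and Hsd3b1 has the widest gap, from 8.29% to 34.1%.

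A feature that the rule did not use marked many of the most read members: the new junction passed over a very short annotated exon. The search, added after these values were seen, took annotated exons of the gene that lie inside the new intron, between an annotated donor and acceptor within 100 bases of the new junction's ends, where the model's exons were longer than the annotated ones. It found 78 junctions in 79 members of 71 genes, and in 54 of the 78 (69.2%) the exon or exons passed over were 30 bp or less in sum. Exons this short make up 1.35% of all annotated internal exons. Among junctions of NNC models read in 1 library only, exons of 30 bp or less were 30.3% (168 of 554) and 39.1% (72 of 184) of those passed over. As a share of all junctions with a new site, the short class was 2.41% in the members and 0.787% and 0.973% in the single-library models, with no test of the difference.

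The 55 members concerned held 1978 reads in replicate 1 and 679 in replicate 2, which is 18.6% and 14.7% of all member reads. They include 7 of the 20 members with the highest level, and 7 of the 11 members that held 50% or more of their gene's full-length reads in both libraries, counted only in genes that reached 20 such reads in each. Those 11 are Capn2, Chmp1a, Mrpl33, Col6a1, Idh3g, Suds3 and Uckl1, which pass over such an exon, and Cct6a, 4930447A16Rik, Mknk2 and Ptcd3, which do not by this measure. Uckl1 and Ptcd3 are named after their values were seen. Uckl1, a uridine-cytidine kinase family member, had 34 and 14 reads, and Ptcd3, a mitochondrial pentatricopeptide protein, 55 and 16.

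In 31 of the 54, no read of either library held the annotated exon with its exact ends. The new junction had more reads than the exon in both libraries in 35, and the exon had more reads than the new junction in both libraries in 18. Of the 35 junctions over 1 to 20 bp, 27 had an exon listed at 0 in both libraries and 3 an exon with 10 or more reads in each. Of the 19 over 21 to 30 bp, 4 had an exon at 0 and 13 an exon with 10 or more reads in each. Most annotated exons of 20 bp or less in this set were thus unread, and most of those of 21 to 30 bp were read.

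Annotated short exons at large were mostly read. Among internal exons that every annotated coding transcript of a gene holds, in genes that reached 20 full-length reads in both libraries, 8 of 84 exons of 30 bp or less (9.52%, Wilson interval 4.91 to 17.7%) had no read in either library. By length, none of the 2 exons of 10 bp or less was read, while 3 of 11 at 11 to 20 bp and 3 of 71 at 21 to 30 bp were unread. Of those of 31 to 50 bp none of 428 was unread (upper bound 0.890%), and of those over 50 bp 20 of 9424 (0.212%, 0.137 to 0.328%). Whether reads of such exons were aligned to the flanking intron bases was not tested, since neither reads nor the aligner's settings are among the files used here.

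The bases added to the exon and the annotated exon passed over are shown side by side for 5 of these members, 5′ to 3′ on the gene's strand, from the same reference, all in lower case.
Mrpl33, 8 bases added after the annotated donor: gtaagtcg
Mrpl33, annotated exon chr5:31614603-31614621, plus strand: ttgccaagagcaagtcaaa
Chmp1a, 25 bases added after the annotated donor: gtaaggggctgtcatccacttcggg
Chmp1a, annotated exon chr8:123210216-123210235, minus strand: ataccctgttccagttgaag
Capn2, 17 bases added after the annotated donor: gtaccggcagaggatgg
Capn2, annotated exon chr1:182482536-182482547, minus strand: gttccagaggag
Rps24, 18 bases added after the annotated donor: gtactgccattgggcacg
Rps24, annotated exon chr14:24495430-24495449, plus strand: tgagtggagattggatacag
Uchl1, 9 bases added after the annotated donor: gtaagcata
Uchl1, annotated exon chr5:66676436-66676447, plus strand: atgctgaacaaa

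Read counts at these exons ran as follows. The Mrpl33 junction had 374 and 253 reads and its exon of 19 bp 13 and 9. The Capn2 junction had 83 and 28 reads, the Rps24 junction 74 and 31 and the Uchl1 junction 56 and 13, and their exons of 12, 20 and 12 bp had none in either library. The Chmp1a junction had 274 and 19 reads and its exon of 20 bp 11 and 0. Uchl1, a neuronal ubiquitin hydrolase, was named after its values were seen.

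Idh3g passed over an exon of 12 bp at 0 reads, with 415 and 110 reads of the junction, and Suds3 an exon of 20 bp with 1 read in each library, against 252 and 65. In Suds3 the 4 bases added at the donor and the 16 added at the acceptor together equal the 20 bp of the exon. Such equality was found in 4 of the 54 junctions, the added bases were within 3 of the exon's length in 22, and within 8 in 45. At 45 of these 54 junctions the length of the model was thus within 8 bases of the annotated one. The letters printed above are those of the reference, and the letters of the reads were not seen.

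**Figure D4:**
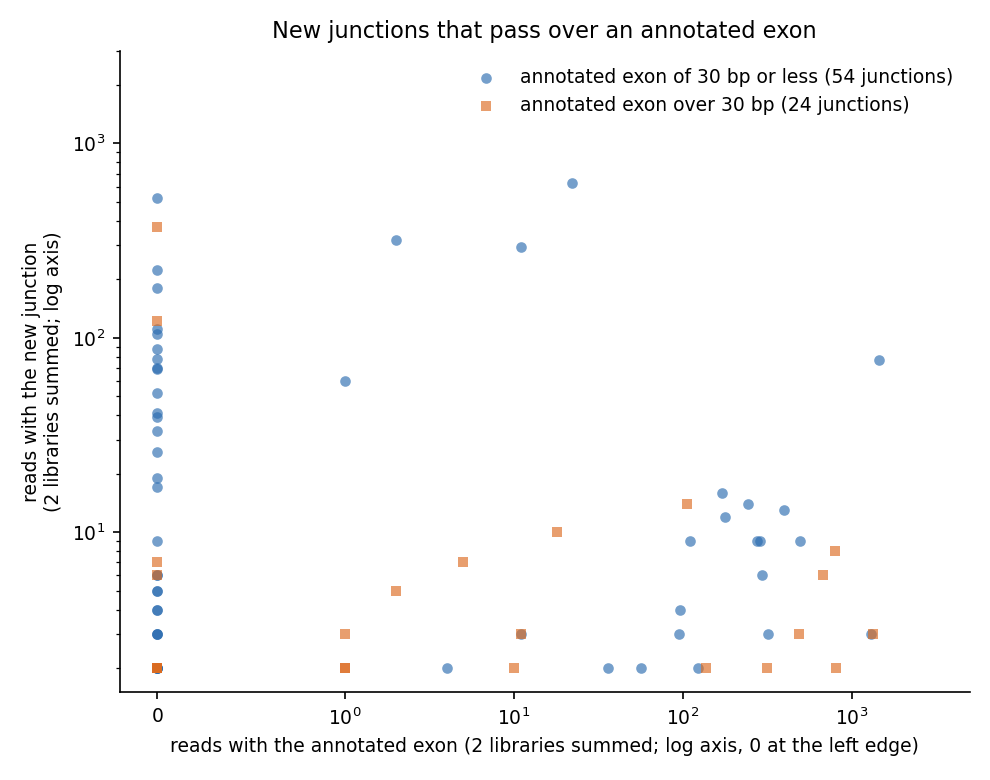
Each point is one of 78 new junctions of recurrent models that pass over annotated exons, placed by the reads of the annotated exon with its exact ends (horizontal) and of the new junction (vertical), both summed over the 2 libraries, with blue circles for exons of 30 bp or less in sum and orange squares for longer ones. Of the 54 circles, 31 lie at 0 on the horizontal axis, among them Idh3g, Capn2 and Rps24.

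New internal exons, which overlap no exon of their gene, numbered 153 in 141 genes, and 147 of them overlap no exon of any gene on the strand. Their length ran from 24 to 1482 bp with a median of 103 bp (quartiles 71 and 133), against a median of 125 bp (89 and 171) in 210883 annotated internal exons. Of the 153, 50 (32.7%) had a length that is a multiple of 3, against 39.5% of the annotated exons. In the coding span 26 of 88 new exons did.

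Inclusion, the reads with the exon over those with the exon or skipping it, could be given for 69 new exons with 20 or more reads in each library. Its median was 1.03% in replicate 1 and 1.85% in replicate 2, 64 lay under 10% on average, and 2 reached 50%. Both of those 2 lie upstream of the annotated start of Srd5a2, a steroid 5-alpha reductase. The Srd5a2 exon of 114 bp at chr17:74105178-74105291 was included in 98.3% and 88.9% of reads and the exon of 158 bp at chr17:74080047-74080204 in 83.3% and 80% (16 reads with it and 4 without in replicate 2). The exon of 158 bp has only 1 new end and overlaps an annotated exon of another gene on the strand, while the exon of 114 bp overlaps none. These counts cover models of any class, since the one member that holds both exons had 1 read in each library. Each inclusion is counted over the reads that span that exon, and reads holding both were not counted.

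Among members named for a new internal exon, Tbc1d15, a GTPase activator of Rab proteins, had 32 and 9 reads with an exon of 51 bp, 62.7% and 50% of its gene's full-length reads. Its exon had 35 reads with it and 15 skipping it in replicate 1, and 9 and 9 in replicate 2, so it was not among the 69. Sarnp, an RNA export protein, had 14 and 6 reads with an exon of 53 bp included in 18.3% and 10.2%. Kcnk3, a potassium channel of glomerulosa cells, had 8 and 3 reads with an exon of 223 bp included in 1.07% and 0.593%. Another version of that exon, of 220 bp with the same donor, was held by 7 and 11 reads over all models. The inclusion given for Kcnk3 therefore does not cover both versions. Usmg5, an ATP synthase subunit, had 4 and 4 reads with an exon of 78 bp included in 1.04% and 1.22%.

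**Figure D5:**
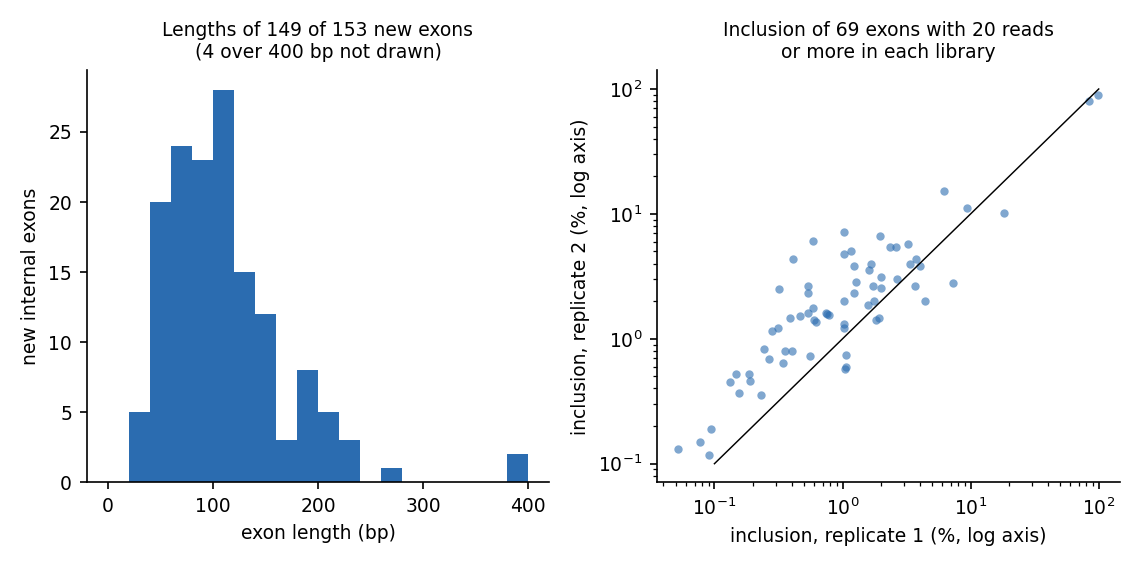
Left, lengths of the new internal exons of recurrent models in bins of 20 bp (149 of 153 drawn); right, inclusion in percent in replicate 1 (horizontal) and replicate 2 (vertical), log axes, for the 69 exons with 20 or more reads in each library, with a line at equal values. Most exons are near 1% in both, and the 2 Srd5a2 exons are at the upper right.

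New first exons brought 197 new sites and new last exons 129. Of the first, 82 (41.6%) began outside the annotated gene, at a median of 1428.5 bases, and of the last, 40 ended outside it, at a median of 3790.5 bases. Yipf1, a Golgi membrane protein, had 67 and 52 reads of a model of 2 exons whose first exon is new, 41.4% and 59.8% of its full-length reads. That exon lies in the 3′ UTR span of the annotated coding transcript with most reads. The Yipf1 model is only 315 bp long in replicate 1 and 306 bp in replicate 2. Hnrnpf, an RNA-binding protein, had 80 and 8 reads (17.4% and 10.1%), Anp32b, a nuclear phosphoprotein, 24 and 6 (11.5% and 11.1%) and Fads2, a fatty acid desaturase, 19 and 8 (1.13% and 1.41%). The Fads2 exon starts an intron of 30010 bp.

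Among models with a new last exon, Pik3c2g, a class II phosphoinositide kinase, had 67 and 24 reads and held 47.2% and 47.1% of its full-length reads. Its new acceptor had 70 and 24 reads over all models. The nearest annotated acceptor, with 206 and 63 reads, lies before the start of the new intron. A read can hold both, so they are not alternatives. Rffl, a ubiquitin ligase, had 7 and 5 reads, 1810059H22Rik 4 and 5 and Vti1a, a SNARE protein, 4 and 4. These 3 counts are near the floor of 3 reads, and no difference between the libraries can be read from them.

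New introns inside annotated exons numbered 96 in 87 genes, and all were readable at both ends. Of these, 84 (87.5%) were GT-AG, and 14 (14.6%) were under 70 bp, against 0.610% of 9187 annotated introns that another annotated transcript retains. In the 3′ UTR span lay 43 of the 96 (44.8%), against 3.49% of those annotated introns. In NNC models of replicate 1 only and replicate 2 only, 44.1% and 41.9% of such introns lay there, near the members' share. Under 70 bp were 7.89% and 7.96% of them. A direct repeat of 6 or more bases at the ends stood in 8 (8.33%), against 2.53% of the annotated introns and 5.49% and 7.83% of such introns in NNC models of a single library. Template switching at repeats during reverse transcription is one known source of such gaps, and its part here was not tested.

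Srd5a2 had the most read model of this kind, 52 and 19 reads with an intron of 59 bp in its 3′ UTR span. Over all models that intron was read 76 and 34 times. The nearest annotated donor, read 107 and 48 times, lies before the exon that holds this intron, so these donors are not alternatives. The model's share of the gene's full-length reads was 38.5% and 67.9%. Lrrc47 had 44 and 10 reads (51.8% and 52.6%) with an intron of 46 bp in the 3′ UTR span, and Gm28382 24 and 14 (85.7% and 73.7%) with one of 188 bp. The short introns of Srd5a2 and Lrrc47 had end repeats of 3 and 4 bases. In Lrrc47 the 30 bases around the donor and the 30 around the acceptor also share a longer identical stretch. Both ends thus lie in repeated sequence, which the count of end repeats does not show.

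The 5 genes with most members held 17 to 8 each, and 3 of them encode steroid hormone enzymes. Cyp21a1, steroid 21-hydroxylase, had 17 members with 235 and 77 reads, and Cyp11a1, which cleaves the cholesterol side chain, had 12 with 75 and 22. Alas1, the first enzyme of heme synthesis, had 11, Abcb1b, a drug efflux pump, had 9, and Cyp11b1, steroid 11-beta-hydroxylase, had 8 with 171 and 52 reads. In sum these members were 1.74% and 1.81% of the full-length reads of Cyp21a1, 0.716% and 0.698% of Cyp11a1, and 2.08% and 1.91% of Cyp11b1. Cyp21a1, Cyp11b1, Hsd3b1 and the Akr1c genes have near-identical copies in the mouse genome, so their reads are uncertain.

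Over the list of 20 steroid synthesis genes, 13 had members, 71 in all, with 696 and 646 CPM (671 ± 35.3, SD, n = 2), or 1.31% and 1.48% of the list's full-length reads. Of 24 medulla genes 8 had 18 members (108 ± 22.9 CPM), of 23 oxidative phosphorylation genes 14 had 25 (154 ± 24.1 CPM), and of 34 splicing factor genes 6 had 7 (19.7 ± 0.565 CPM). Their shares of each list's full-length reads were 1.09% and 1.21%, 0.619% and 0.762%, and, for splicing factors, 0.446% in replicate 1 and a little more in replicate 2. All 4 stood near the 1.14% and 1.47% of all members over all full-length reads, or below them.

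In Cyp21a1 the most read member had an acceptor 25 bases downstream, 61 and 18 reads, with 70 and 21 reads of the site over all models against 13286 and 4175 at the annotated acceptor. Another had an acceptor 18 bases upstream (52 and 19 reads, 0.396% and 0.472%), and a member with an acceptor 51 bases downstream had 37 and 11. Cyp11b1 had an acceptor 21 bases upstream, with 86 and 22 reads (1.07% and 0.861%), and one 4 bases downstream with 31 and 8. The Cyp11b1 acceptor 4 bases downstream took 0.498% and 0.282% of the reads at its pair. Of the medulla genes, Cyb561, a cytochrome of chromaffin granules, had 24 and 11 reads (6.47% and 15.5%) with a donor 170 bases downstream. Chromogranin A, Chga, had 7 members with 70 and 12 reads. Splicing factor genes had no member with 5 or more reads in each library.

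A Fisher's exact test (two-sided) asked, for each spliced Known, NIC and NNC model with 10 or more reads in sum in a gene that reached 20 full-length reads in both libraries, whether its share of the gene differed between the libraries, with Benjamini-Hochberg adjustment over 4571 models. It called 75 models, 1.64% of those tested, and 2 of the 189 members tested (1.06%), a share near that background. At an unadjusted p under 0.05 there were 15 members. Reads of 1 library are not replicates, so a call compares these 2 libraries and nothing wider.

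Both called members, of steroid synthesis genes, had a larger share in replicate 2. Hsd3b1, which converts pregnenolone to progesterone, had a member with an acceptor 31 bases downstream in the 5′ UTR span, with 50 of 603 full-length reads (8.29%) in replicate 1 and 29 of 85 (34.1%) in replicate 2 (adjusted p = 3.3e-07, Fisher's exact test). The Wilson intervals of these shares were 6.35 to 10.8% and 24.9 to 44.7%. Over all reads of Hsd3b1 the same model held 0.456% and 0.655% (adjusted p = 0.47, Fisher's exact test), and over all models its acceptor took 0.605% and 1.09% of the reads at the pair. The Hsd3b1 call therefore holds only against its few full-length reads.

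Fdx1, adrenodoxin, which passes electrons to the mitochondrial steroid enzymes, had a member with an acceptor 5 bases downstream, with 2 of 2142 full-length reads (0.0934%) in replicate 1 and 8 of 573 (1.40%) in replicate 2 (adjusted p = 0.0091, Fisher's exact test). Over all reads of Fdx1 the shares were 0.0846% and 1.29% (adjusted p = 0.0024, Fisher's exact test). With replicate 1 thinned to the depth of replicate 2 the Fdx1 model had too few reads to be tested, and Hsd3b1 kept its call (adjusted p = 9.5e-05, Fisher's exact test).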

How the data were processed

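RNA of adrenal gland was sequenced by long-read RNA-seq in 2 libraries, and the members and gene lists were chosen with earlier results of these data known. The authors deposited, for each library, a table of whole-read counts per transcript model, with no normalization, and an annotation of exon positions (mm10, GENCODE M21, models and classes from TALON, per the file headers and labels). The 2 libraries were processed separately. Not given in the sources used here are the aligner, its settings, any correction of splice junctions and any filter on the models. Models were joined by chromosome, strand and every intron's ends. Sites were called new where no GENCODE M21 transcript on the strand has them, and were measured against sites of the same kind in the gene. CPM are reads per 1000000 reads of annotated genes. Letters came from GENCODE M21 transcripts and RefSeq promoters of the same build (GRCm38), which gave the same base at all 5127074 positions held more than once.

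Depth was 1223776 and 453761 reads. Models named are the 20 highest in mean CPM, the 4 highest of each kind of structure, the 5 with the largest mean share of their gene, at most 6 members of the steroid, medulla and splicing factor lists with 5 or more reads in each library, the 5 genes with most members, and models passing the test. The share test is Fisher's exact test with Benjamini-Hochberg adjustment at 0.05 (scipy 1.17.1, statsmodels 0.14.6, Python 3.11.15). It and the search for new sites were tested on simulated data. Alternatives were read minimums, NNC in 1 library, a 2-base tolerance, thinning, other denominators and an exact binomial test with edgeR 4.0.16 TMM sizes.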

Additional observations from a re-analysis of the deposited data

How the results depend on the processing

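No paired analysis was possible because the 2 libraries form a single group. Asking for at least 2 reads in each library left 552 members and at least 5 reads 128, and thinning replicate 1 to the depth of replicate 2 left 1233. Counting chains NNC in either library gave 2574, and a 2-base tolerance gave 2096. The share of spliced NNC reads ran from 31.8 to 40.8% and the summed level from 9315 to 11124 CPM when either library was left out. At 2 or more reads the share was 24.5%, and per 1000000 full-length reads the level was 13037. The share of new sites within 10 bases was 35.8% weighted by reads and 29.2% at 2 or more reads in each library. It stayed between 31.7 and 31.9% in the 3 other alternatives, for any gene, at 5 or more reads and without the 10 genes with most members. New internal exons numbered 28 at 2 or more reads and 3 at 5 or more. Members called by Fisher's exact test against all reads of the gene numbered 4 of 204 (1.96%), of which 1 is shared. Over all models that setting called 441 of 5326 (8.28%). After thinning it called 1 of 87 members (1.15%) and 47 of 3540 models (1.33%). An exact binomial test of reads called 12 members (903 of 4571 models), among them Fdx1 (adjusted p = 0.0064) and not Hsd3b1 (adjusted p = 0.19). The cause of these changes was not tested, beyond the fewer models that read minimums and thinning leave. Depth limits many members: 767 rest on 1 read in each library.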
